A study of Mus musculus with 4 samples.

Results

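The RNAs of 9 genes that modify and fold procollagen were followed between the protrusions and the cell bodies of migrating fibroblasts: P4ha1, P4ha2, P4ha3, P4hb, Plod1, Plod2, Plod3, Serpinh1 and Crtap. Every probe set whose platform annotation gave exactly 1 symbol, that symbol being one of these 9, was taken, which gave 13 of the 45101 probe sets on the array. P4ha1, Plod1, Plod2 and Serpinh1 had 2 probe sets each and the other genes had 1. No further probe set listed one of these genes together with another symbol.

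The material came from NIH/3T3 cells, an established mouse fibroblast line, with no transgene or deletion named in the labels. Both fractions came from cells that had been starved of serum overnight, had spread for 2 h on a porous membrane coated with fibronectin, and were then exposed for 1 h to 150 ng/ml lysophosphatidic acid (LPA, a serum lipid that stimulates migration) from below. The 2 pseudopodia samples are what had grown through the pores, and the 2 cell body samples are what stayed above, both collected after light formaldehyde fixation. Fixation was with 0.3% formaldehyde for 10 min, and in both fractions the crosslinks were reversed at 70 °C for 45 min. Unstimulated cells were not analysed here, so the comparison is between parts of LPA-stimulated cells and not between stimulated and resting cells.

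Collagen chains enter the endoplasmic reticulum (ER) as they are made. There, prolyl 4-hydroxylase, a complex of a catalytic alpha subunit (P4ha1, P4ha2 or P4ha3) with protein disulfide isomerase as its beta subunit (P4hb), hydroxylates prolines, which makes the collagen triple helix stable at body temperature. The lysyl hydroxylases Plod1, Plod2 and Plod3 hydroxylate lysines that later carry sugars or crosslinks, Crtap is part of the prolyl 3-hydroxylase complex, and Serpinh1 (Hsp47) is a chaperone that binds folded procollagen. These are resident ER proteins of cells that secrete much collagen, fibroblasts among them.

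Each array gave a MAS5 signal, a brightness per probe set on a linear scale, and the authors had scaled all 4 arrays to the same trimmed mean of 250.0. A lower value therefore means a smaller share of the signal of that fraction, and in such bulk fractions less RNA per cell and RNA from fewer cells cannot be told apart. The fibroblast markers were bright, with a summed signal of 102008.3 to 106301.4 on every array, and 7 of 8 passed the filter described next; Thy1 did not (5.7 to 56.3). Of the epithelial markers 3 of 6 passed the filter, with sums of 612.7 to 962.8, and of the blood markers 2 of 4, with sums of 241.5 to 389.2. Ptprc, the defining marker of blood cells, stood at 5.0 to 21.5. The beta-actin 3′ to 5′ ratio, a sign of RNA integrity, was higher in pseudopodia by a factor of 1.14 in replicate 1 and of 1.81 in replicate 2. The same ratio for Gapdh was nearly equal in the fractions, with factors of 1.05 and 1.06. The part of RNA integrity in the results below was not tested.

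A difference here is the mean log2 value in pseudopodia minus that in cell bodies, after adding a pseudocount of 32 to signals scaled to a mean of 500, with the SE of the limma fit and n = 2 arrays per fraction. This scale understates the change of dim probe sets. Probe sets were tested where their mean log2 value over all 4 arrays reached the median of all probe sets, near a deposited signal of 27.8, which kept 11 of the 13 probe sets and 8 of the 9 genes. A probe set passed the test at an adjusted p under 0.05 (limma, Benjamini-Hochberg over 22519 probe sets).

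The RNAs of the catalytic subunits P4ha1 and P4ha2 and of the lysyl hydroxylase Plod1 were lower in pseudopodia, by factors of 2.60, 3.16 and 2.83. The beta subunit P4hb stood close to equal in the fractions, and Plod2, Plod3, Serpinh1 and Crtap lay between, without passing the test. In all, 4 of the 11 probe sets kept were lower, where 3.32% of all probe sets kept were lower, and none of the 11 was higher, where 1.08% of all were. None was higher at an unadjusted p either, since all 11 differences were below 0, as were 52.3% of all tested. In 9 of the 11 both pseudopodia arrays read below both cell body arrays, as in 28.2% of all probe sets kept. In none were both above, as in 24.8% of all. The members' median difference was -0.77 and that of all probe sets -0.03.

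**Figure D1:**
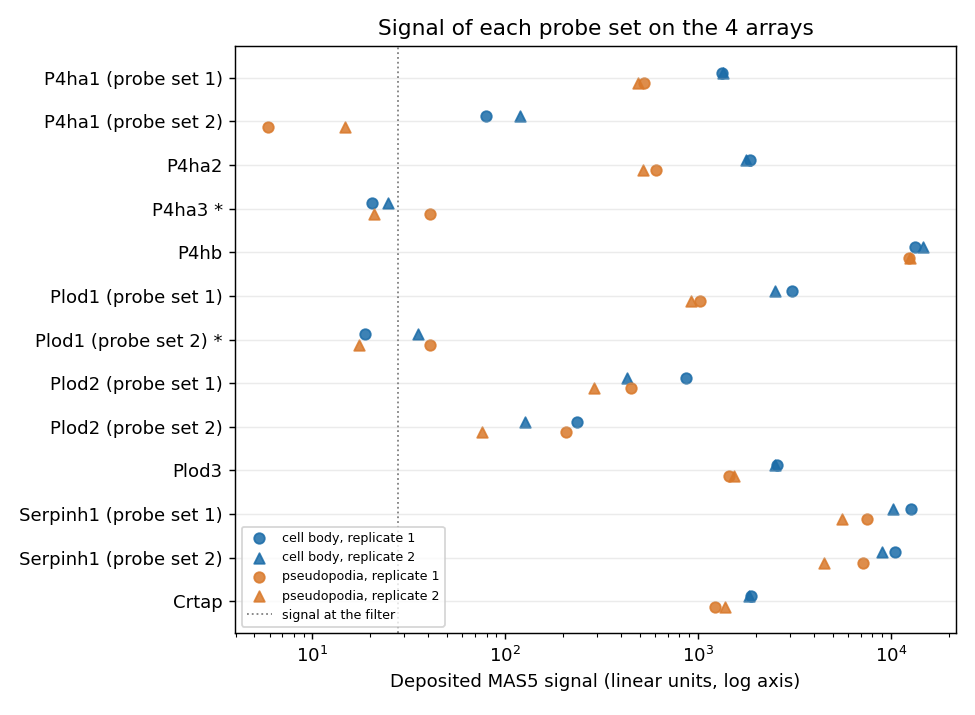
Deposited MAS5 signal (linear units on a log axis) of the 13 probe sets on the 4 arrays, blue for cell bodies and orange for pseudopodia, circles for replicate 1 and triangles for replicate 2. Asterisks mark the 2 probe sets below the filter and the dotted line its approximate position. The fractions stand apart for both probe sets of P4ha1, for P4ha2 and for the bright probe set of Plod1, and nearly coincide for P4hb.

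P4ha1 encodes the alpha subunit generally regarded as the most widely expressed. Its brighter probe set (1452094_at) read 1335.0 and 1338.0 in cell bodies, against 524.6 and 486.4 in pseudopodia. Both pseudopodia arrays lay far below both cell body arrays, whose readings differed little. The difference was -1.38 ± 0.19 (limma, adjusted p = 0.0220), at -1.32 in the replicate 1 pair and -1.43 in the replicate 2 pair. Its dimmer probe set (1426519_at) read 79.8 and 119.6 against 5.9 and 14.8 and gave -2.13 ± 0.39 (limma, adjusted p = 0.0326). Here both pseudopodia readings were under the filter level, so this probe set was tested only because of its cell body signal. It adds no support, and without the filter its adjusted p was 0.104. Among the 10 members whose mean reached the filter in both fractions, 3 were lower, against 3.23% of all such probe sets.

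P4ha2, a second catalytic subunit, had the largest difference of the 8 genes when each was taken by its brightest probe set. It (1417149_at) read 1848.1 and 1766.8 in cell bodies, against 607.9 and 517.3 in pseudopodia. The fractions were well apart in both replicates. The difference was -1.66 ± 0.20 (limma, adjusted p = 0.0184), with a 95% interval of -2.12 to -1.20 and values of -1.58 and -1.74 in the replicate pairs. Of all 22519 probe sets tested, 347, this one included, had a difference as low or lower. The third catalytic subunit, P4ha3 (1446951_at), was at the background of the array, with 20.3 and 24.6 in cell bodies, against 40.8 and 20.9 in pseudopodia. Its readings overlapped between the fractions and it was not tested.

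P4hb, the beta subunit, also works as a disulfide isomerase on many other secreted proteins. It (1437465_a_at) read 13296.3 and 14606.9 in cell bodies, against 12350.4 and 12529.5 in pseudopodia. The fractions did not overlap, but the gap was small, at -0.16 ± 0.13 (limma, adjusted p = 0.528). The 95% interval of -0.48 to 0.15 does not reach the differences of P4ha1 and P4ha2. The size of the gap depended on the scaling. P4hb stood at -0.49 after quantile normalization (limma, adjusted p = 0.0577) and at -0.50 on hybridization controls (limma, adjusted p = 0.109). The brighter P4ha1 probe set then stood at -1.31 and -1.70, P4ha2 at -1.63 and -1.99, and the median of all probe sets at 0.04 and -0.32. Taken within each array, the change of P4ha1 relative to P4hb was -1.22 in replicate 1 and -1.21 in replicate 2, and that of P4ha2 relative to P4hb was -1.47 and -1.52. The order was thus the same in both replicates, but these pairs were chosen with their values known, and with 2 arrays a fraction the smallest two-sided p of an exact permutation test is 0.333. P4hb is brighter than 99.4% of the probe sets on the array, and the 2252 brightest probe sets kept had a median difference of 0.24, above that of all. The part of signal level in the contrast between the subunits was not tested.

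Plod1 encodes the lysyl hydroxylase that is defective in the kyphoscoliotic form of Ehlers-Danlos syndrome. Its bright probe set (1416289_at) read 3067.1 and 2508.5 in cell bodies, against 1025.9 and 917.8 in pseudopodia. The pseudopodia readings were the lower ones by a wide margin in both replicates. The difference was -1.50 ± 0.20 (limma, adjusted p = 0.0198), with -1.57 and -1.43 in the replicate pairs. The second probe set of Plod1 (1445893_at) was just below the filter, at 18.8 and 35.4 against 40.5 and 17.5. Its replicate pairs pointed opposite ways, and it says little about Plod1 at this signal.

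Plod3 is the lysyl hydroxylase that also transfers sugars to hydroxylysine. It (1415901_at) read 2573.7 and 2500.5 in cell bodies, against 1437.0 and 1531.0 in pseudopodia. These readings did not overlap and hardly varied within a fraction. The difference was -0.77 ± 0.17, just short of the threshold (limma, adjusted p = 0.0540), with a 95% interval of -1.17 to -0.36. The change of Plod1 relative to Plod3 was -0.73 in each replicate, again a description of a pair chosen after its values were seen.

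Plod2, which hydroxylates the lysines of collagen telopeptides, was the most variable member. Its brighter probe set (1416687_at) read 865.1 and 430.2 in cell bodies, against 447.8 and 289.9 in pseudopodia. The higher pseudopodia reading exceeded the lower cell body reading, so the fractions overlapped, although each replicate pair was lower in pseudopodia (-0.93 and -0.54). The difference was -0.74 ± 0.36 (limma, adjusted p = 0.284). The dimmer probe set (1416686_at) read 234.4 and 127.1 against 205.3 and 76.2, at -0.41 ± 0.45 (limma, adjusted p = 0.652). Its fractions overlapped too, and each replicate pair was lower in pseudopodia (-0.18 and -0.63). On both probe sets the replicate 2 readings were lower than the replicate 1 readings in each fraction. The difference of the dimmer one turned to 0.23 without pseudopodia replicate 2 and was -1.04 without pseudopodia replicate 1.

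**Figure D2:**
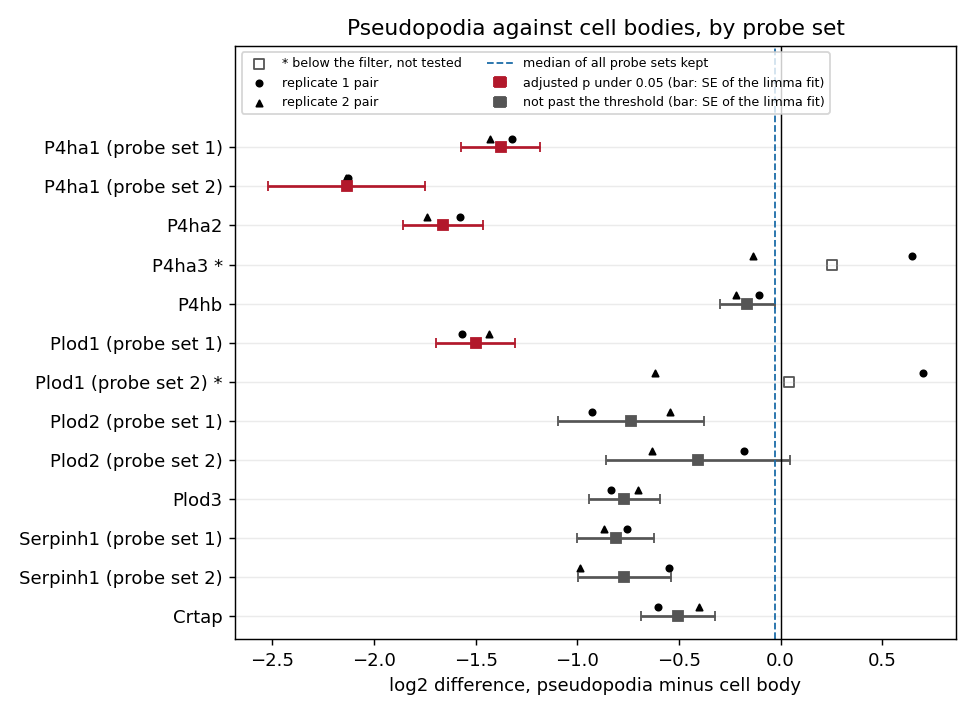
Log2 difference of pseudopodia minus cell body for the 13 probe sets (squares, with the SE of the limma fit as bars; red where the adjusted p is under 0.05, open where below the filter), with the replicate 1 pair as small circles and the replicate 2 pair as small triangles. The red squares, of P4ha1, P4ha2 and Plod1, lie between -2.13 and -1.38, and P4hb lies at -0.16 near the dashed median of all probe sets kept.

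Serpinh1, the collagen chaperone, read 12623.9 and 10244.6 in cell bodies, against 7478.4 and 5602.9 in pseudopodia on its brighter probe set (1456733_x_at), while the other (1450843_a_at) read 10424.0 and 8956.6 against 7117.3 and 4510.0. Both probe sets separated the fractions and both were lower within each replicate pair. Their differences were close to each other, at -0.81 ± 0.19 and -0.77 ± 0.23, and neither passed (limma, adjusted p = 0.0585 and 0.101). After quantile normalization and on hybridization controls the brighter one passed (limma, adjusted p = 0.0390 and 0.0358). The brighter one is of a type (suffix x) that can cross-hybridise with other transcripts.

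Crtap, the helper subunit of prolyl 3-hydroxylase (1448592_at), read 1875.9 and 1838.0 in cell bodies, against 1228.5 and 1385.6 in pseudopodia. The readings of the fractions did not overlap. The difference was -0.50 ± 0.18 (limma, adjusted p = 0.162), at -0.60 and -0.40 in the replicate pairs. P3h1, the enzyme of the same complex, was lower, only just past the threshold, at -1.40 ± 0.30 (limma, adjusted p = 0.0487). Its dimmer probe set stood at -1.01 without passing. Ppib, the cyclophilin of that complex, chosen after its values were seen, stood at 0.09 ± 0.15 (limma, adjusted p = 0.762). The Ppib signals of 9379.4 and 9563.9 in cell bodies overlapped those of 9339.4 and 10933.8 in pseudopodia.

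The replicate numbers mark a shared experiment code and a shared scan day. With the replicate number as a block, 9 of the 11 probe sets were lower and none higher, where 11.3% and 6.84% of all probe sets kept were. The 5 added were those of Plod3 (limma, adjusted p = 0.00268), Serpinh1 (0.000257 and 0.000897), Crtap (0.0448) and the brighter one of Plod2 (0.0194). P4hb and the dimmer Plod2 probe set still did not pass. That fit has 1 residual degree of freedom and leans on the shared estimate of spread.

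All 11 differences were below 0 after median centring, quantile normalization and scaling on hybridization controls too, and the 4 probe sets of P4ha1, P4ha2 and Plod1 passed under each. Their calls rested on the model of the spread. Without the variance trend limma called 0 of all probe sets (4487 at an unadjusted p under 0.05), and P4ha2 had an adjusted p of 0.0629. Without cell body replicate 1, and likewise without cell body replicate 2, no probe set on the array passed (2502 and 2959 at an unadjusted p under 0.05). P4ha2 then stood at -1.63 and -1.69. Without pseudopodia replicate 1 P4ha2 stood at -1.77, and without pseudopodia replicate 2 at -1.55.

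Among the other genes of collagen modification, folding and processing, most had differences below 0 but few passed. Of 24 listed genes, 15 were kept, each taken by its brightest probe set, and 12 of these were below 0, as were 48.8% of all genes kept. Of the 15, 2 were lower and none higher, where 2.52% of all genes kept were lower and 1.30% higher. This lower count was 1 after median centring or quantile normalization, 0 without the filter and 6 on hybridization controls. At an unadjusted p under 0.05, 8 were lower and none higher, where 11.2% of all genes kept were lower and 9.77% higher. With the replicate number as a block 8 were lower and none higher by adjusted p, where 9.72% and 7.71% of all genes were. Their median was -0.61, against 0.01 for all 10962 genes and -0.79 for the 8 genes kept of the collagen hydroxylase group. Colgalt1, which adds galactose to hydroxylysine, was lower by both of its probe sets, the brighter at -0.97 ± 0.19 (limma, adjusted p = 0.0400), and P3h1 was the other gene lower. Bmp1, the protease that removes the procollagen C-propeptide, stood at -1.02 ± 0.23 (limma, adjusted p = 0.0520). Dimmer probe sets of some listed genes, picked out after their values were seen, had the opposite sign to the brightest one. They reached 0.58 for Tmem38b and 0.23 for Mia3, and -0.51 for Fkbp9 and -0.64 for Pcolce.

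The substrates of these enzymes are the collagen chains. Of 16 listed and kept, 6 were lower and none higher, with a median of -0.56, where 2.52% of all genes kept were lower and 1.30% higher. With the replicate number as a block 11 were lower and none higher, where 9.72% and 7.71% of all genes were. Col5a2 (-0.98 ± 0.16), Col16a1 (-1.34 ± 0.24) and Col6a3 (-0.95 ± 0.17) led by the statistic (limma, adjusted p from 0.0259 to 0.0316). The dimmer probe set of Col5a2 stood at -0.64 without passing. The chains of type I collagen, the main collagen of fibroblasts, were picked out after their values were seen. On their brightest probe sets neither passed, with Col1a1 at -0.41 and Col1a2 at -0.31 (limma, adjusted p = 0.214 and 0.231). Their other probe sets differed from these: the second of Col1a1 stood at 0.41, and of the other 2 of Col1a2, 1 was lower at -0.98 (limma, adjusted p = 0.0245) and a dim one stood at -1.85 without passing (0.0610). Whether hydroxylases and chains differ was not tested.

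P4hb belongs to the disulfide isomerase family, and 18 of 19 listed relatives and partners were kept. Of these 5 were lower and none higher, with a median of -0.68, where 2.52% of all genes kept were lower and 1.30% higher. With the replicate number as a block 9 were lower and none higher, where 9.72% and 7.71% of all genes were. All 18 differences were below 0 by the brightest probe set, as were 48.8% of all genes kept, and lay between -1.63 and -0.06. That of P4hb, at -0.16, lay within their range. Pdia5 was lower at -1.63 ± 0.20 (limma, adjusted p = 0.0184), Txndc5 at -1.02 ± 0.18 (limma, adjusted p = 0.0304) and Ero1a, the oxidase that recharges the isomerases, at -1.18 ± 0.21 (limma, adjusted p = 0.0322). Txndc5 was lower by a second probe set too, while the other probe sets of Ero1a did not pass. Some relatives, picked out after their values were seen, also had a dimmer kept probe set above 0, none of them passing. These reached 0.51 for Txndc11, 0.40 for Tmx4, 0.08 for Erp44 and 0.05 for Tmx3 and Prdx4.

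The collagen hydroxylases share their chemistry, which uses iron, oxygen and 2-oxoglutarate, with enzymes that work outside the ER. Many of those act on transcription factors, histones or nucleic acids. Of 29 listed genes of enzymes outside the ER all were kept, and by the brightest probe set none passed in either direction. At an unadjusted p under 0.05 (limma) 1 was lower and 0 higher, against 11.2% and 9.77% of all genes kept. By adjusted p with the replicate number as a block 0 and 0 passed, where 9.72% and 7.71% of all genes did. Their median was 0.07, and 11 of the 29 were below 0, as were 48.8% of all genes kept. The first by the statistic were Tet2 at -0.92 ± 0.34, Hif1an at 0.51 ± 0.23 and Kdm5a at 0.48 ± 0.23 (limma, adjusted p from 0.165 to 0.273). Another probe set of Tet2 stood at 0.32, and another of Kdm5a at -0.31. Kdm6b, Kdm5c and Alkbh3 were picked out after their other probe sets were seen. One dimmer probe set of Kdm6b did pass, lower at -1.73, while another stood at 0.72. Dimmer ones of Kdm5c and Alkbh3 reached -1.67 and -1.07 without passing. Egln1, an oxygen-sensing prolyl hydroxylase of the cytosol chosen after its values were seen, stood at -0.32 ± 0.29.

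**Figure D3:**
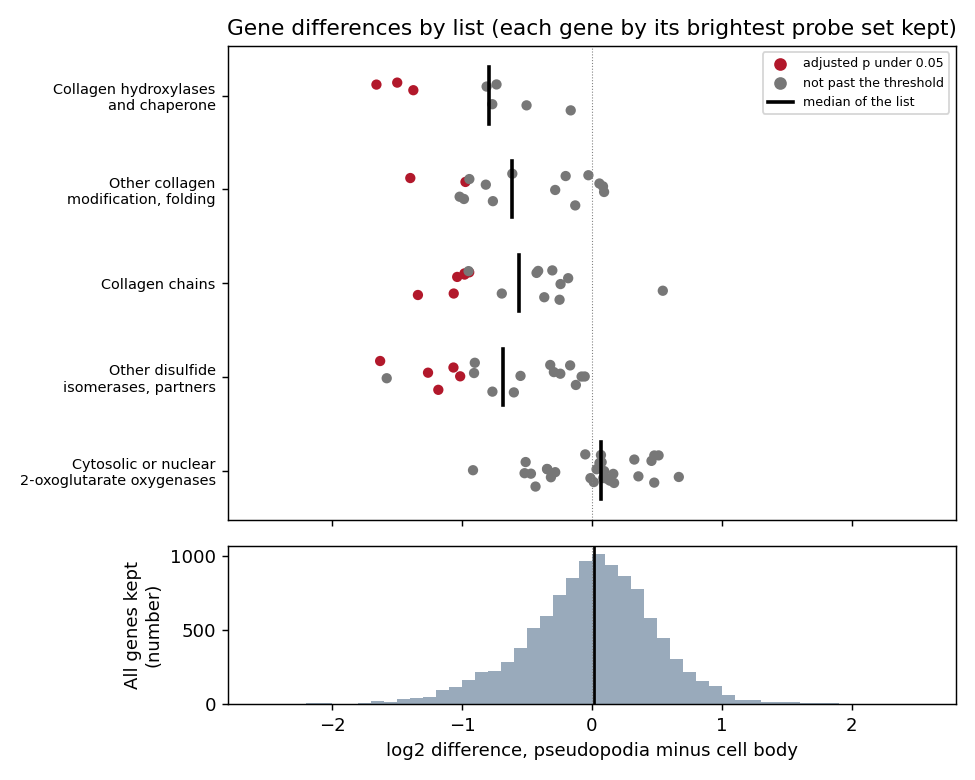
Upper panel: log2 difference of each gene in the 5 lists (points, by the brightest probe set kept; red where the adjusted p is under 0.05; black bars at the list medians, points spread vertically at random). Lower panel: the number of all 10962 genes kept per bin of 0.1, with their median of 0.01 as a line. The 4 lists of collagen and ER genes have medians between -0.79 and -0.56, and the cytosolic or nuclear oxygenases 0.07.

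By profile over the 4 arrays, the genes most like the mean of the 8 kept members were Ptpra, a receptor phosphatase, Fam193b, Pla2g15, a lysosomal phospholipase, Pear1 and Pdgfra, a growth factor receptor of fibroblasts. Likeness was the root mean square distance between log2 profiles centred on their own means, which was 0.03 to 0.04 for these 5 genes and 0.12 to 0.41 for the members themselves. Only Ptpra passed the test (-0.98 ± 0.20; limma, adjusted p = 0.0427), and the other 4 stood between -0.92 and -0.87. With 4 arrays many genes lie close to any such profile.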

How the data were processed

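The authors deposited an intensity for each probe set on each array, which the submitters' processing notes name as MAS5; version, scaling target and detection calls are not given in the sources used here. The scanner settings files (other than measurements) were read for scan days only, per the file headers. Genes were named from the platform annotation, and 0 symbols needed updating against RefSeq. The labels do not say how the cultures were separated, so a p-value here covers only how these samples vary, which may be technical, and the number of arrays limits the precision.

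Each array was brought to a mean signal of 500, trimmed by 2% at each end, and log2(signal + 32) was fitted with limma 3.58.1 in R 4.3.3 (lmFit, eBayes with a variance trend, two-sided). A gene in a list stands by its brightest probe set kept. Same-numbered arrays were scanned on the same day, and their replicate deviations in the fractions correlated at r = 0.243 across probe sets, which are not independent replicates; the replicate block was run as an alternative. Tested on simulated data (22519 probe sets, 200 of them changed), the fit called 2.45% of those changed by 1 log2 unit and 49.4% of those changed by 2, and 5.56% of its calls were false. The simulated noise was independent between arrays, and in the data 4956 probe sets had an unadjusted p under 0.05 (limma). These shares are therefore not the sensitivity or the false share of the calls made here.

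Named are all members, up to 3 genes per further list by the moderated statistic, and the 5 most alike genes; others are marked. The members and lists were chosen with earlier results of these data known. Members kept are not all members, and no list was tested as a set. Alternatives changed the pseudocount, filter, scaling, variance trend, block and arrays.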

Additional observations from a re-analysis of the deposited data

How the results depend on the processing

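The count of members lower in pseudopodia was 4 and stayed between 3 and 6 under other pseudocounts, filters and scalings, including a filter on the mean linear signal that was chosen after seeing the data. It fell to 0 without the variance trend and rose to 9 with the replicate block, and lay between 0 and 9 when 1 array was left out; no member was higher under any of these settings. Over all probe sets the lower and higher counts of 747 and 243 became 137 and 39 without the filter, 1506 and 54 on hybridization controls, 0 and 0 without the variance trend, and 2546 and 1541 with the replicate block, with ranges of 0 to 2652 and 0 to 1304 when 1 array was left out. Genes lower in the 4 further lists numbered 13, and 1, 23, 0 and 28 in the same order of settings, with a range of 0 to 25 when 1 array was left out. Scaling on hybridization controls moved the median of all probe sets to -0.32, relative to which the members' median stood at -0.78. Over all settings the members' median lay between -1.05 and -0.61 relative to that of all probe sets. P4ha2 ranged from -1.99 to -1.55 over its 14 alternatives with adjusted p from 5.14e-06 to 0.236, and passed in 11. Plod3 passed after quantile normalization (limma, adjusted p = 0.0470) and on hybridization controls (0.0284), as did the brighter Serpinh1 probe set (0.0390 and 0.0358). Plod3 also passed in a fit with probe sets averaged per gene (limma, adjusted p = 0.0325). It has only 1 probe set, so its difference there was unchanged at -0.77. With 1 array left out, the lone array of that fraction is assumed to vary like those of the other fraction. The cause of these changes was not tested.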
